A study of Mus musculus with 4 samples.

Results

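Pancreatic beta cells read nutrients and hormones through a small set of proteins in their surface and granule membranes. The 7 genes described here encode the incretin receptors (Gipr and Glp1r), the long-chain fatty acid receptor (Ffar1), the prolactin receptor (Prlr), a cation channel (Trpm5) and the phosphatase-like proteins of the insulin granule (Ptprn and Ptprn2). They were taken by gene name from 2 lists of N6-methyladenosine (m6A) peaks, where 7491 genes had a peak in at least 1 list. All 7 genes had a peak, and they held 13 of 9411 peaks in the knockout list and 13 of 10964 peaks in the control list.

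The lists came from pancreatic islets of 7-week-old mice kept on normal chow. One genotype was Wtap-βKO, in which Wtap is lacking in beta cells, and the other was Wtapflox/flox, which carries the floxed Wtap gene. RNA of 19 Wtap-βKO mice and of 10 Wtapflox/flox mice was pooled by genotype, and each pool gave 1 library of RNA bound by an m6A antibody (IP) and 1 library of unselected RNA (input), 4 samples in all. The Cre driver was not given in the sources used here, and islets also hold alpha, delta, endothelial and other cells, in which Wtap is not the target of a beta cell knockout.

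WTAP belongs to the nuclear methyltransferase complex that places m6A on messenger RNA. It holds the catalytic METTL3 and METTL14 subunits in nuclear speckles, and the mark is read by proteins that act on RNA splicing, translation and decay. The mark is frequent near stop codons and in long internal exons. Incretins and fatty acids released around a meal amplify glucose-stimulated insulin secretion through G protein-coupled receptors, and prolactin drives beta cell growth in pregnancy.

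A peak here is a stretch of exons in which the authors' caller, exomePeak, found more IP than input reads at a q-value of 0.05 or lower. Its fold enrichment, IP over input, and its q are the authors' own values. With 1 pool per genotype there was no replicate and no test between genotypes, so all values below are set side by side as descriptions. Read depth is unknown. A missing peak is a missing call, and loss of the mark, fewer beta cells and less RNA per cell cannot be told apart in such lists. Of the 7 beta cell markers checked, 6 had a knockout peak and 5 a control peak, and all 4 endothelial markers had peaks in both lists. Of 5 alpha cell markers, 4 had a knockout peak and 3 a control peak. Of 4 acinar and 3 ductal markers, 2 of each had a knockout peak, against 1 and 0 with a control peak, and neither of the 2 stromal markers had a peak in either list. The part of these cell types in the results was not tested. Wtap itself had 1 knockout peak and 2 control peaks, which do not check the genotype because the floxed exons were not given.

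The 7 genes fell into 3 patterns. Glp1r and Trpm5 had no peak in Wtap-βKO islets, against 1 peak each in Wtapflox/flox islets, so 2 of 7 genes with a control peak lacked a knockout peak. Over all genes with a control peak, 33.8% lacked one (95% interval 32.6 to 35.0). With a fold of at least 2 in both lists neither Glp1r nor Trpm5 had a peak, and 0 of the 7 had a control peak alone. Gipr, Ffar1, Prlr and Ptprn2 had peaks in both lists that overlapped by at least 1 bp, and under a 50% reciprocal overlap 1 gene, Ptprn2, still had such a pair. The best-q knockout peak of Prlr lay wholly inside a control peak but shared 810 of its 1649 nt, just under that limit. Ptprn had 1 peak in each list at different places, so 1 of 5 genes with peaks in both lists had no overlapping pair, against 13.2% over all genes with peaks in both. None of the 5 genes with a knockout peak lacked a control peak, against 23.1% of all genes with a knockout peak. No reading is taken from counts this small.

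**Figure D1:**
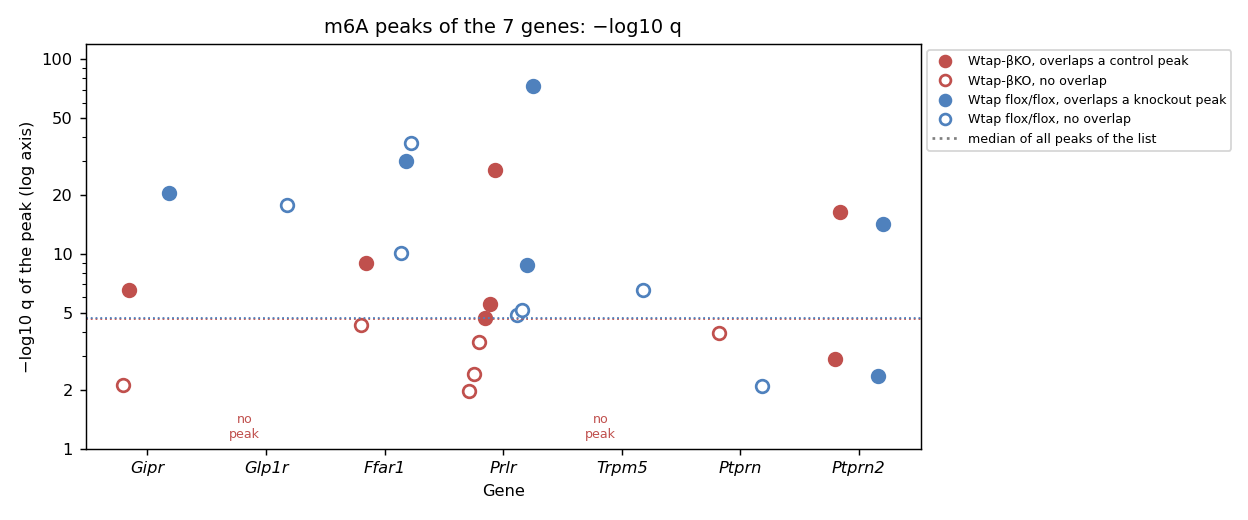
Each point is 1 m6A peak of 1 of the 7 genes. The vertical axis is its −log10 q on a log axis, Wtap-βKO peaks stand left of Wtapflox/flox peaks for each gene, and filled points overlap a peak of the other list. Open Wtapflox/flox points reach 37.1 (Ffar1), whereas open Wtap-βKO points stay at or below 4.3, and the dotted lines are the medians over all peaks of each list, 4.63 and 4.72.

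Of the 13 knockout peaks of these genes 6 had no overlapping control peak, against 38.4% over all knockout peaks. Of the 13 control peaks 7 had no overlapping knockout peak, against 48.4% over all control peaks. The unmatched peaks of the genotypes differed in rank. The 6 unmatched knockout peaks had −log10 q values of 1.99 to 4.3 with a median of 2.98, below the median of 3.22 over all unmatched knockout peaks. The 7 unmatched control peaks had values of 2.1 to 37.1 with a median of 6.55, above the median of 3.38 over all unmatched control peaks. Counting matched and unmatched peaks together, 6 of 13 knockout peaks and 11 of 13 control peaks lay above the median q rank of their own list.

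By fold enrichment the same peaks were modest. The median fold was 2.53 over the 13 knockout peaks and 1.98 over the 13 control peaks, against medians of 3.43 and 3.95 over all peaks of the lists. Only 3 of the 13 peaks in each list lay above the median fold of that list, and 5 knockout and 7 control peaks had a fold under 2. None of these 26 peaks reached a fold of 8, from which many peaks of the lists share a few repeated fold values.

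**Figure D2:**
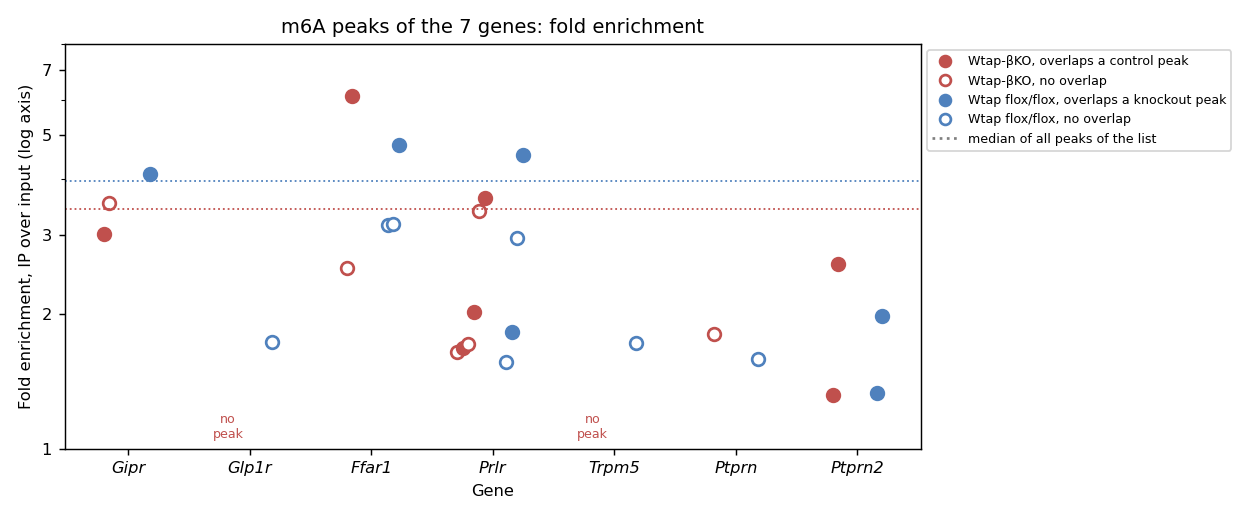
Each point is 1 m6A peak of 1 of the 7 genes. The vertical axis is its fold enrichment of IP over input on a log axis, with Wtap-βKO peaks left of Wtapflox/flox peaks and filled points for peaks that overlap a peak of the other list. Among these peaks the highest fold was at Ffar1, 6.11 in Wtap-βKO and 4.77 in Wtapflox/flox islets, and both Ptprn2 pairs sit at or below 2.59.

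Gipr encodes the receptor of glucose-dependent insulinotropic polypeptide, an incretin released by the upper gut. Its main peak (ENSMUSG00000030406, chromosome 7, minus strand, GRCm38) spanned 19157013 to 19157251 in Wtap-βKO islets, against 19156716 to 19157311 in Wtapflox/flox islets. The knockout peak covered 239 nt and lay wholly inside the control peak of 596 nt. Its −log10 q was 6.55 in Wtap-βKO islets and 20.7 in Wtapflox/flox islets, and its fold was 3.02 in Wtap-βKO islets and 4.1 in Wtapflox/flox islets, a ratio of 0.737. The 3′ edges of the knockout and the control peak lay 950 and 653 nt before the end of the RefSeq gene. The knockout list held a second Gipr peak, 19165041 to 19166127, made of 2 exon blocks with 150 nt in all. Its fold of 3.53 was the higher of the 2, but its −log10 q of 2.13 put it at percentile 5.59 of the knockout list, and the control list had no peak there.

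Glp1r, the receptor of glucagon-like peptide 1 and the target of drugs such as exendin-4, had no peak in Wtap-βKO islets. In Wtapflox/flox islets it had 1 peak (ENSMUSG00000024027) of 178 nt, at chromosome 17, 30936333 to 30936510, plus strand. The peak ended on the last base of the RefSeq gene. Its fold was 1.73, at percentile 2.99 of the control list, whereas its −log10 q was 17.9, at percentile 90.7. Calls at or above that rank were rarely without a counterpart. Of the 836 genes whose best control −log10 q was at least as high, 29 had no knockout peak (3.47%, interval 2.34 to 4.94). Of the 272 among them with a single control peak 16 had none (5.88%, interval 3.40 to 9.38). Both sets include far stronger calls and were not matched on fold. In the class of −log10 q from 10 to 20, which holds Glp1r, 110 of 1147 genes had none (9.59%, interval 7.95 to 11.4). The incretin receptors therefore differed in these lists, with a narrower and lower-ranked knockout call at Gipr and no knockout call at Glp1r. That difference was not tested.

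**Figure D3:**
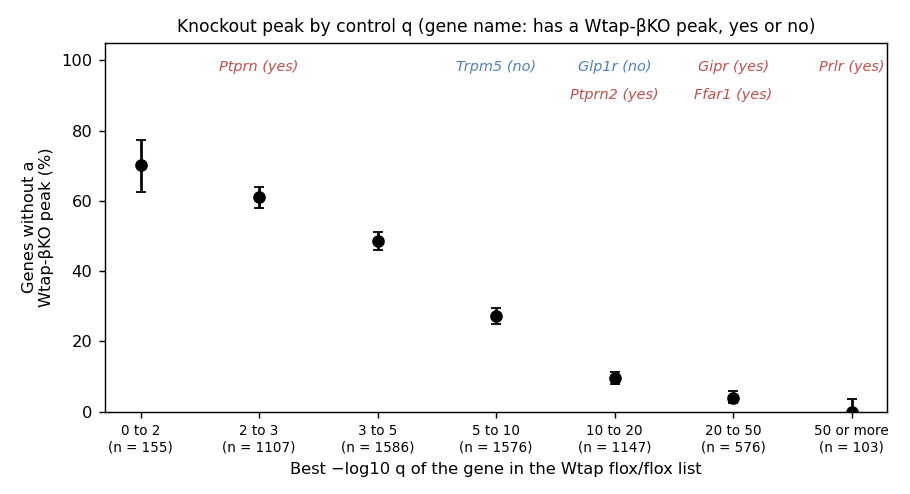
Points give the percent of genes without a Wtap-βKO peak, by the best −log10 q of the gene in the Wtapflox/flox list, with exact 95% intervals over genes. Gene names stand above the class of their own best control q with yes or no for a Wtap-βKO peak. The share was 48.5% at −log10 q from 3 to 5, 27.1% from 5 to 10 (Trpm5) and 9.59% from 10 to 20 (Glp1r and Ptprn2).

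Ffar1, also called GPR40, encodes the receptor through which long-chain fatty acids amplify insulin secretion by way of Gq. It had 2 peaks in Wtap-βKO islets and 3 in Wtapflox/flox islets (ENSMUSG00000044453, chromosome 7, minus strand), and 1 place was called in both. There the knockout peak, 30860550 to 30860819, lay wholly inside the control peak, 30860133 to 30860908, and covered 270 of its 776 nt. The −log10 q at that place was 9 in Wtap-βKO islets and 29.9 in Wtapflox/flox islets. The fold went the other way, 6.11 in Wtap-βKO islets and 4.77 in Wtapflox/flox islets, a ratio of 1.28, so the shorter knockout peak had the higher enrichment. These folds were taken over stretches of unequal length.

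The control peak of Ffar1 with the best q had no knockout counterpart. It spanned 30861325 to 30861564 with 240 nt, a fold of 3.18 and a −log10 q of 37.1, percentile 98.0 of the control list. The nearest knockout peak of Ffar1 was 505 nt away. Of the 224 control peaks with a −log10 q at least as high, 6 had no overlapping knockout peak (2.68%, interval 0.989 to 5.74). That set includes far stronger calls and was not matched on fold, length or place. The Ffar1 peak itself was at percentile 33.5 of the control list by fold and 53.4 by length. Of all control peaks that began within 500 nt of a gene start, 51.9% had no overlapping knockout peak. This peak straddled the start of the RefSeq gene, whose 903 nt begin with the ATG of the coding sequence, with 146 nt inside the gene and 94 nt upstream of it. The other unmatched Ffar1 peaks lay past the end of this 903 nt RefSeq gene, in stretches that the caller took as exons of Ffar1. The knockout peak was at 30859537 to 30859716 with a −log10 q of 4.3, and the control peak was at 30858583 to 30858821 with a −log10 q of 10.1. A gap of 715 nt separated them.

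The start of Ffar1 was the single place where a peak of the 7 genes overlapped a RefSeq promoter window (250 bases before to 50 after a gene start), among 9 windows of 6 genes. Of the 240 nt of the peak, 144 are in that window. They were searched for 2 cores of the m6A consensus, GGAC and GAAC, on both strands. Both stretches below are shown because they lie under the control peak that the knockout list lacks. They are RefSeq sequence of GRCm38.p6 on the minus strand, written as DNA in the direction of the transcript, with the cores in capitals. The coding start is at chr7:30861421-30861470 and the upstream site at chr7:30861490-30861519.
Ffar1 coding start: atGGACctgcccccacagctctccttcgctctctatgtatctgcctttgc
Ffar1 upstream site: gagtacagtGAACaggagGAACagtggcga
GGAC occurred 1 time in the 144 nt, beginning at base 3 counted from the A of the ATG, and GAAC occurred 3 times, all upstream of the ATG. Neither core occurred on the opposite strand. In the same 144 positions of 32851 RefSeq promoter windows, 41.8% held GGAC and 35.4% held GAAC on the transcript strand. The RefSeq start of Ffar1 is its ATG, which need not hold for the other windows. Their shares may thus come from an unlike kind of sequence. A match says nothing of which adenosine carries the mark.

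**Figure D4:**
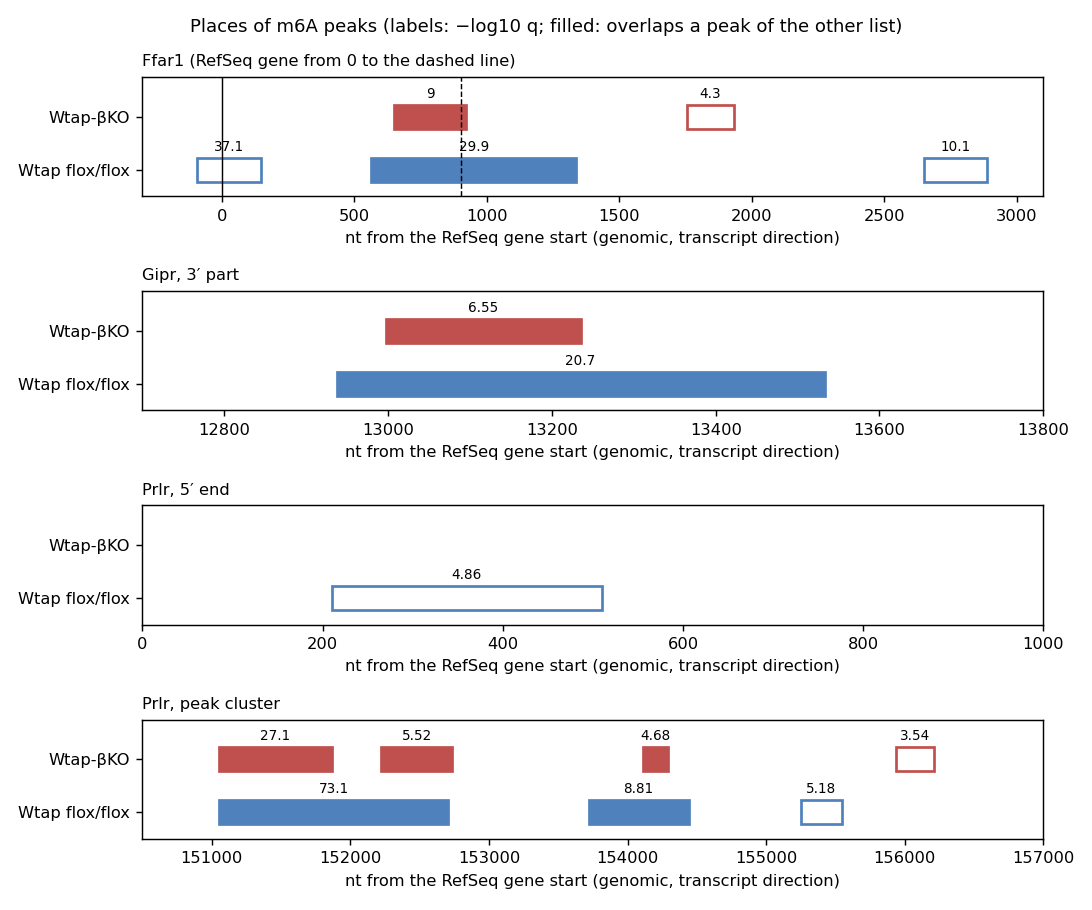
Bars are m6A peaks of Ffar1, Gipr and Prlr placed by nt from the RefSeq gene start along the genome in transcript direction, with Wtap-βKO above Wtapflox/flox and −log10 q as labels. Filled bars overlap a peak of the other list. The knockout bars of Gipr and Ffar1 lie inside wider control bars, the Ffar1 peak at 0 and the Prlr peak near its gene start are present in the Wtapflox/flox row alone, and the leading Prlr bars begin at the same base.

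Prlr encodes the prolactin receptor, a cytokine receptor that signals through JAK2 and STAT5. It had the most peaks of the 7 genes, 6 in Wtap-βKO islets and 4 in Wtapflox/flox islets (ENSMUSG00000005268, chromosome 15, plus strand). The leading peaks of both lists began at the same base, 10328293. In Wtap-βKO islets the peak ran to 10329102 (810 nt), with a fold of 3.62 and a −log10 q of 27.1. In Wtapflox/flox islets it ran to 10329941 (1649 nt), with a fold of 4.53 and a −log10 q of 73.1. Further along that control stretch lay a separate knockout peak, 10329461 to 10329971, with a fold of 2.02 and a −log10 q of 5.52. The unbroken control peak thus faced 2 knockout peaks. Together these shared 1291 of its 1649 nt, or 78.3%. By −log10 q the leading peaks ranked at percentile 97.2 of the knockout list and 99.5 of the control list.

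A second place downstream was also called in both. The knockout peak at 10331349 to 10331528 had a fold of 1.68 and a −log10 q of 4.68, and the control peak at 10330959 to 10331678 had a fold of 1.82 and a −log10 q of 8.81. The knockout peak covered 180 of the 720 nt. Further on, a knockout peak at 10333176 to 10333446 (−log10 q 3.54) and a control peak at 10332487 to 10332787 (5.18) lay 388 nt apart. The knockout list alone had a Prlr peak of 120 nt at 10319227 (−log10 q 2.41) and one of 150 nt at 10347323 (1.99), both among the weakest ranks of the list, at percentiles 10.9 and 3.24. The control list alone had a peak at 10177448 to 10177747 with a fold of 2.95 and a −log10 q of 4.86, starting 210 nt into the RefSeq gene. This Prlr peak and the Ffar1 start peak were the 2 of 13 control peaks that began within 500 nt of a gene start, and 0 of the 13 knockout peaks did. Over all genes, 51.9% of control peaks at such places had no overlapping knockout peak (interval 46.8 to 57.0), and 48.4% of knockout peaks there had no overlapping control peak (43.1 to 53.6). The control share was close to the 48.4% of control peaks at any place. The knockout share was above the 38.4% of knockout peaks at any place, a difference that was not tested.

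Trpm5 encodes a calcium-activated cation channel that depolarises the beta cell membrane. It had no peak in Wtap-βKO islets. In Wtapflox/flox islets 1 peak of 510 nt (ENSMUSG00000009246, chromosome 7, 143071764 to 143072273, minus strand) ended 235 nt before the end of the RefSeq gene. Its fold of 1.72 lay at percentile 2.92 of the control list and its −log10 q of 6.55 at percentile 63.1. Of 2772 genes with a best control −log10 q at least that of Trpm5, 343 had no knockout peak (12.4%, interval 11.2 to 13.7). Among the 1160 of them with a single control peak the share was 20.1% (17.8 to 22.5). Both sets include stronger calls, and in the class of −log10 q from 5 to 10, which holds Trpm5, the share was 27.1%. The Trpm5 call was thus closer than that of Glp1r to the ranks at which a missing counterpart is common.

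Ptprn (IA-2) and Ptprn2 (phogrin) encode transmembrane proteins of dense-core granules with inactive phosphatase domains, and both are autoantigens of human type 1 diabetes. Their peaks were low in fold in both lists. By peak edges and shared length, the Ptprn2 calls differed least between genotypes among the 7 genes. A junction-spanning peak on chromosome 12, plus strand (ENSMUSG00000056553), ran from 116871943 to 116876264 in Wtap-βKO islets and from 116871973 to 116876264 in Wtapflox/flox islets. It had 3 exon blocks of 194, 41 and 275 nt in the knockout list and of 164, 41 and 275 nt in the control list. The fold was 2.59 in Wtap-βKO islets and 1.98 in Wtapflox/flox islets, a ratio of 1.31, and the −log10 q was 16.5 in Wtap-βKO islets and 14.3 in Wtapflox/flox islets. The other Ptprn2 peak had identical edges in both lists, 117276639 to 117276789. Its fold was 1.32 in Wtap-βKO islets and 1.33 in Wtapflox/flox islets, and its −log10 q was 2.9 in the knockout list and 2.36 in the control list. In all, 631 nt of Ptprn2 were called in both lists, out of 661 nt in the knockout list and 631 nt in the control list.

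Ptprn had 1 short, weak peak per list, 10828 nt apart in the genome (ENSMUSG00000026204, chromosome 1, minus strand). In Wtap-βKO islets it lay at 75247057 to 75247206, 22 nt from the end of the RefSeq gene, with a fold of 1.8 and a −log10 q of 3.92. In Wtapflox/flox islets it lay at 75258035 to 75258155, with a fold of 1.59 and a −log10 q of 2.1, percentile 5.06 of the control list. Neither place had a peak in the other list.

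Each gene can be represented by its peak of strongest q. For 3 of 5 genes called in both genotypes (Gipr, Ffar1 and Prlr) that value was weaker in Wtap-βKO islets, and for 2 (Ptprn and Ptprn2) it was stronger, whereas 60.0% of all such genes had the weaker value in Wtap-βKO islets. The fold of the best-q peak was lower in Wtap-βKO islets for 2 of 5, Gipr and Prlr, against 56.6% of all such genes. At the 7 overlapping pairs of peaks, the fold was lower in Wtap-βKO islets in 5 and higher in the leading Ptprn2 pair and at Ffar1, against 57.3% lower over all overlapping pairs. The −log10 q was likewise lower in 5 of 7 pairs, the exceptions being both Ptprn2 pairs, against 59.2% over all pairs. The 1649 nt Prlr control peak enters 2 of the 7 pairs, each with a lower knockout value. The second Ptprn2 pair was almost equal in fold, 1.32 in Wtap-βKO and 1.33 in Wtapflox/flox islets. By best q the 3 receptor genes and the 2 granule membrane genes stood on different sides, which was not tested. The granule side is narrow. Ptprn2 had 16.5 in Wtap-βKO and 14.3 in Wtapflox/flox islets. Ptprn had 3.92 in Wtap-βKO and 2.1 in Wtapflox/flox islets, from peaks at different places.

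Called length was lower in Wtap-βKO islets for the receptor genes called in both lists. The granule genes differed little. Ptprn2 had 661 nt in Wtap-βKO and 631 nt in Wtapflox/flox islets. Ptprn had 150 nt in Wtap-βKO and 121 nt in Wtapflox/flox islets, at different places. Peaks of the receptor genes covered 389 nt of Gipr, 450 nt of Ffar1 and 2042 nt of Prlr in Wtap-βKO islets, against 596, 1255 and 2970 nt in Wtapflox/flox islets. The mean fold of those peaks was 3.27, 4.32 and 2.34 in Wtap-βKO islets and 4.1, 3.7 and 2.72 in Wtapflox/flox islets. Over the 7 genes the called length was 3692 nt in the knockout list and 6261 nt in the control list, and over all peaks it was 2595930 and 3316990 nt. Of 13 peaks each, 6 knockout and 10 control peaks were longer than the median of their list, 210 and 211 nt.

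Peaks near the 3′ end of the RefSeq gene were part of the pattern of these genes as of others. Within 1000 nt of that end lay 3 of 13 knockout peaks, against 20.4% of all knockout peaks with a RefSeq span, and 5 of 13 control peaks, against 22.6%. One of the 5 is the Ffar1 start peak, since that RefSeq gene is shorter than the window. Peaks joining more than 1 exon were 2 of 13 in the knockout list, against 18.0% of all, and 1 of 13 in the control list, against 11.7%.

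Among all named genes with the same numbers of peaks, those with the most similar pair of best −log10 q values were Slc36a4 and Rbm7 for Glp1r (distances of 0.1 and 0.7 in units of −log10 q) and Flad1 and Insig2 for Trpm5 (0.0 and 0.01). For Prlr the nearest were Vegfa, at a distance of 1.12, and Dicer1, at 34.0, among 14 candidates. The nearest to Gipr were Stt3b (1.63) and Dedd2 (2.38), to Ffar1 Lrfn3 (6.06) and Slc8a1 (6.11), to Ptprn Fermt2 (0.175) and Vps37a (0.184), and to Ptprn2 Ddx5 (0.141) and Nudcd3 (0.608). For Glp1r and Trpm5 the distance rests on the control value alone, since neither they nor their candidates had a knockout peak. Each other distance rests on 2 values, 1 per list. With many candidates small distances are common.

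The pathways around the 7 genes were described with 6 lists of 146 other genes. Of these, 77 had a peak, 14 in Wtap-βKO islets alone, 12 in Wtapflox/flox islets alone and 51 in both. Thus 12 of 63 listed genes with a control peak lacked a knockout peak (all genes, 33.8%). Conversely, 14 of 65 listed genes with a knockout peak, 21.5%, lacked a control peak (all genes, 23.1%). The best −log10 q of listed genes had a median of 5.88 in the knockout list and 9.9 in the control list, against 5.44 and 5.54 over all genes. Over all genes, 48.5% lacked a knockout peak at a best control −log10 q from 3 to 5 and 9.59% from 10 to 20. The shares of listed genes and of all genes were not matched on this rank. In 35 of the 51 genes called in both genotypes (68.6%), the strongest q was weaker in Wtap-βKO islets (all genes, 60.0%). The genes named below with peaks in both lists were taken by their control q, a choice that favours genes with a weaker q in Wtap-βKO islets, so each list's tally is given with them.

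**Figure D5:**
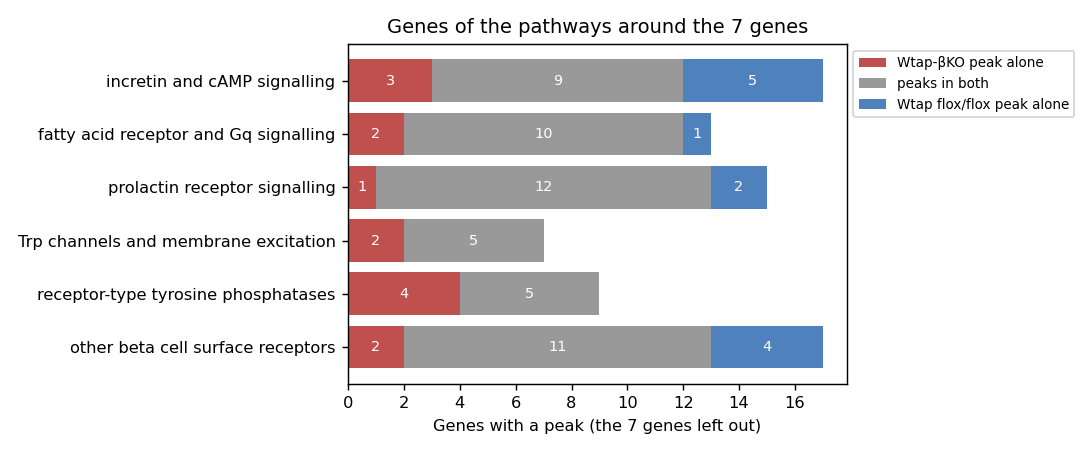
Bars count genes with a peak in 6 lists of pathway genes, split into Wtap-βKO peak alone, peaks in both, and Wtapflox/flox peak alone, with the 7 genes left out. Peaks in both lists are the largest class in each bar, and the Trp channel and phosphatase lists have no gene with a Wtapflox/flox peak alone. The Trp channel list and the phosphatase list each hold only 5 genes with a Wtapflox/flox peak.

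Downstream of the incretin receptors, 9 genes of cAMP signalling had peaks in both lists, 3 in Wtap-βKO islets alone and 5 in Wtapflox/flox islets alone. The best q was weaker in Wtap-βKO islets in 6 of the 9. Gnas, which encodes the stimulatory G protein alpha subunit, had a best −log10 q of 167 in Wtap-βKO islets and 90.9 in Wtapflox/flox islets. The adenylyl cyclase gene Adcy9 had 18.5 in Wtap-βKO and 17.9 in Wtapflox/flox islets, and the inhibitory G protein gene Gnai2 had 13.9 in Wtap-βKO and 16.6 in Wtapflox/flox islets. Knockout peaks alone were called in Gnai1 (9.08), in Crem, a cAMP-responsive transcription factor gene (5.76), and in the protein kinase A gene Prkacb (4.83). Control peaks alone were led by Crtc1, a coactivator of CREB (9.96), followed by the receptor kinase gene Grk5 (3.64), Atf1 (3.6) and the phosphodiesterase gene Pde4d (3.54). These control calls, apart from Crtc1, were below the median best control −log10 q over all genes.

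Around Ffar1, 10 genes of fatty acid receptor and Gq signalling had peaks in both lists, 2 in Wtap-βKO islets alone and 1 in Wtapflox/flox islets alone. The last was Ffar3, a short-chain fatty acid receptor gene, with a −log10 q of 7. The IP3 receptor genes Itpr1 (3.92) and Itpr3 (1.99) had knockout peaks alone. The best q was weaker in Wtap-βKO islets in 7 of the 10 genes with both. Among the 7, the muscarinic receptor gene Chrm3 had a best −log10 q of 2.16 in Wtap-βKO islets and 19.3 in Wtapflox/flox islets. Gnaq, the Gq alpha subunit gene, had 11.3 in Wtap-βKO and 17.7 in Wtapflox/flox islets, and the protein kinase C gene Prkce had 7.1 in Wtap-βKO and 16.4 in Wtapflox/flox islets. The other 3 had the stronger value in Wtap-βKO islets, namely Rgs2, a regulator of Gq signalling, with 17.9 in Wtap-βKO and 10.7 in Wtapflox/flox islets, the short-chain fatty acid receptor gene Ffar2 with 11.6 in Wtap-βKO and 4.27 in Wtapflox/flox islets, and Rgs4 with 5.88 in Wtap-βKO and 2.97 in Wtapflox/flox islets. These 3 were named after their values were seen.

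In prolactin receptor signalling, 12 genes had peaks in both lists, 1 in Wtap-βKO islets alone and 2 in Wtapflox/flox islets alone. The kinase gene Jak2 had a weak knockout peak alone (1.74), and the adaptor gene Sh2b1 (3.08) and the feedback inhibitor gene Socs2 (2.67) had control peaks alone. The growth hormone receptor gene Ghr, a relative of Prlr, had a best −log10 q of 38.4 in Wtap-βKO islets and 61.8 in Wtapflox/flox islets. The phosphatase gene Ptpn11 had 7.49 in Wtap-βKO and 39.3 in Wtapflox/flox islets. Both were lower in Wtap-βKO islets, as were 7 of the 12 genes.

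Of the Trp channel and excitation genes, 5 had peaks in both lists and 2 in Wtap-βKO islets alone, namely the sulfonylurea receptor gene Abcc8 (5.4) and Pkd2 (3.78). The best q was weaker in Wtap-βKO islets in 4 of the 5. The potassium channel gene Kcnj11 had a best −log10 q of 8.44 in Wtap-βKO islets and 30.7 in Wtapflox/flox islets. The calcium channel gene Cacna1d had 10.8 in Wtap-βKO and 14.3 in Wtapflox/flox islets. Trpm5 was the only gene of its list, itself included, with a control peak alone. Besides Trpm5, only 5 genes of that list had a control peak at all. Over all genes with a control peak, 33.8% lacked a knockout peak, so nothing particular to Trpm5 is read from this.

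Of the receptor-type phosphatases other than Ptprn and Ptprn2, 5 had peaks in both lists and 4 in Wtap-βKO islets alone, namely Ptprt (5.65), Ptprz1 (4.99), Ptpra (2.79) and Ptprg (1.86). Those 4 were 44.4% of the 9 with a knockout peak, the highest such share among the lists (7.69% to 28.6% in the others). Over all genes the share was 23.1%, and the difference was not tested. Of the 5 with both, 3 had a weaker best q in Wtap-βKO islets. Ptprf had a best −log10 q of 13.4 in Wtap-βKO islets and 25.3 in Wtapflox/flox islets, Ptprj had 3.21 in Wtap-βKO and 4.2 in Wtapflox/flox islets, and Ptprd had 5.26 in Wtap-βKO and 2.93 in Wtapflox/flox islets. Of the other surface receptors, 11 had peaks in both lists, 2 in Wtap-βKO islets alone and 4 in Wtapflox/flox islets alone. Of the 11, 9 had a weaker best q in Wtap-βKO islets. The somatostatin receptor genes Sstr1 (2.59) and Sstr2 (2.5) had knockout peaks alone, whereas Sstr3, known from the cilium of beta cells, had 30 in Wtap-βKO islets and 49.7 in Wtapflox/flox islets. The calcium-sensing receptor gene Casr had 24.8 in Wtap-βKO and 33.1 in Wtapflox/flox islets, and the adrenergic receptor gene Adra2a had 10.8 in Wtap-βKO and 26.1 in Wtapflox/flox islets. Control peaks alone were called in Adora1 (12.7), Gpr142 (8.03), Egfr (4.09) and Adipor2 (2.48).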

How the data were processed

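The authors' files were 2 peak lists, assigned to genotypes by the name they share with the sample titles. Per the submitters' processing notes, fastp 0.19.11, BWA 0.7.12 and HOMER 4.9.1 were used with GRCm38 (mm10). Per the labels, RNA (2 ug a pool) was cut to about 100 nt, incubated with antibody for 2 hours at 4 °C and read as 150 bp pairs, and per the series' design text exomePeak 2.16.0 compared each IP with the input of its genotype. The deposited p-value of each peak, the deposited log10 of p and of q (an unbounded score) and the deposited fold ratio were used as given. The annotation release and depth are not given in the sources used here.

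From these lists, peaks were called overlapping when exon blocks shared at least 1 bp on the same strand. Starts were taken as 0-based and are printed 1-based. Gene spans and the Ffar1 sequence came from RefSeq GRCm38.p6. Distances to gene ends are genomic and include introns. Percentiles are ranks within a list. Intervals are exact Clopper-Pearson 95% intervals and cover counting error over genes or peaks. Peaks without a gene name (714 knockout, 742 control) entered the counts over all peaks and genes.

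The 7 genes, the gene lists and the rule for named genes were chosen with earlier results of these data known. The rule took all 7 genes and, from each list, up to 4 genes with a peak in one list alone by −log10 q, and 3 with peaks in both by control −log10 q, and the 2 genes most alike. Some genes that the rule takes are not reported here. Shares at or above the ranks of Glp1r, Trpm5 and the Ffar1 start peak, and near gene starts, were added after their values were seen. The code was tested on simulated intervals. Python 3.11.15, pandas 2.3.3 and scipy 1.17.1 were used.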

Additional observations from a re-analysis of the deposited data

How the results depend on the processing

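Of 60 alternative counts, 49 stayed within 1.5 times the reported count and 11 moved beyond it. The cause of the moves was not tested beyond what each alternative leaves out. The 49 include counts that could not move, so they do not all test the results. A setting without peaks at a fold of 8 or more on a repeated fold value is an example. None of the 13 peaks of the 7 genes in each list was such a peak, so that setting could not change any count of these genes. With a fold of at least 2 in both lists, 3 genes had a control peak, 3 had peaks in both, 0 had a control peak alone and 1 (Ptprn2) had a knockout peak alone, so the peaks of Glp1r and Trpm5, at folds of 1.73 and 1.72, were left out. In that setting 4 knockout and 3 control peaks overlapped. Under a 50% reciprocal overlap, 2 knockout and 2 control peaks overlapped, and 1 gene (Ptprn2) had an overlapping pair. With q of 0.001 or less in both lists, and with equal numbers of peaks, 1 gene (Ptprn) had a knockout peak alone. The other settings could not change the class of Glp1r or Trpm5, which have no knockout peak and a control q within every limit used. The stricter q of 0.001 applied to control peaks only was chosen after seeing the data, and Ptprn then had a knockout peak alone. No paired analysis was possible because a single pool stood for each genotype, which also left no replicate to omit. Read depth is unknown and limits every missing call.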
